A study of Mus musculus with 8 samples.

Results

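The genes described here are 10 transcripts of neutrophil recruitment and neutrophil identity: the chemokines Cxcl1, Cxcl2, Cxcl3 and Cxcl5, their receptor Cxcr2, the growth factor Csf3 and its receptor Csf3r, and the neutrophil products S100a8, S100a9 and Retnlg. They are the rows of the count table that carry these symbols, a set picked with earlier results of these data known, and they make up 10 of the 26709 genes in the table. They were measured by RNA sequencing in 8 mammary tumours of the mouse breast carcinoma line EMT6, carried by Balb/c mice, the strain the line came from, with the genotype labelled WT. In 4 tumours the treatment label reads IgG, the control, and in 4 it reads Granzyme-B, for which the series title gives the name GrB-Fc-KS49, a fusion of human sequence that contains granzyme B and targets EMP2, a protein of the cell membrane. Per the design text, treatment was given 3 times in 10 days, and the comparison asks how the agent alters immune cell recruitment into the tumour. The sources used here give no age of the animals, no dose and no time between the last treatment and collection. They also do not say that each tumour came from its own animal, so a p-value reflects only how these 8 samples vary. A sample of each group has a title that ends in U, a suffix that the sources used here do not explain: replicate 1 of IgG and replicate 3 of GrB-Fc-KS49.

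As background, neutrophils leave the blood along gradients of CXC chemokines that carry an ELR motif and bind the receptor CXCR2, which in the mouse include CXCL1, CXCL2, CXCL3 and CXCL5. The cytokine G-CSF, the product of Csf3, drives the production and release of neutrophils from the bone marrow through its receptor, the product of Csf3r. S100A8 and S100A9 form the heterodimer calprotectin, which makes up a large part of the neutrophil cytosol and is also made by monocytes and by stressed or cornifying epithelium, and Retnlg encodes a resistin-like protein of mouse neutrophils. Mouse mammary carcinoma cells, fibroblasts and macrophages can all make these chemokines, so the ligands need not come from neutrophils.

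The 4 ligand genes lay close together on chromosome 5, as a cluster of related genes. In GRCm39, the build of the deposited table, Cxcl5 (ENSMUSG00000029371) was at chr5:90907219-90909483, Cxcl3 (ENSMUSG00000029379) at chr5:90933962-90937459, Cxcl1 (ENSMUSG00000029380) at chr5:91039100-91040974 and Cxcl2 (ENSMUSG00000058427) at chr5:91051730-91053797, all protein-coding and on the plus strand. The 130 bases before the RefSeq start of Cxcl1, Cxcl2 and Cxcl3 are shown because these 3 closely related genes share 2 strings of letters there. They are from GRCm38.p6, plus strand, at chr5:90891115-90891244, chr5:90903769-90903898 and chr5:90785971-90786100, printed 5′ to 3′, with capitals marking the letters GGAATTTCC, a form of the kB motif bound by NF-kB factors, and ATAAAAG, which resembles a TATA box.
Cxcl1: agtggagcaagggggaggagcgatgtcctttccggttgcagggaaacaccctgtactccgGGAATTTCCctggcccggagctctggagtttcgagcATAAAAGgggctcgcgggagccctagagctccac
Cxcl2: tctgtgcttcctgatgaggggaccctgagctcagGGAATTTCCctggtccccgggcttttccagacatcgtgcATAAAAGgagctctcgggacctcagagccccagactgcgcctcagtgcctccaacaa
Cxcl3: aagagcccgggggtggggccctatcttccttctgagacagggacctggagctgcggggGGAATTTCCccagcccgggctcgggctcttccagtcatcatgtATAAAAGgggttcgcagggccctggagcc
GGAATTTCC began 70 bases before the start in Cxcl1, 96 in Cxcl2 and 72 in Cxcl3, and ATAAAAG began 34, 57 and 29 bases before it. Both strings were searched on both strands in the 250 bases before each start, they do not overlap each other, and both were picked after the windows had been looked at. GGAATTTCC was found in 94 of 32851 RefSeq windows of that length (0.286%) and in 3 of the 8 genes described here that matched a window by symbol, Cxcl1, Cxcl2 and Cxcl3. ATAAAAG was found in 4.83% of windows and in 4 of the 8, the same 3 genes and S100a8, where it began 29 bases before the start. Such a match describes the letters in the window and does not show that a factor binds there. Cxcl5 and Csf3 had no window in the table.

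Total estimated counts per sample ran from 74.0 to 82.6 M. Expression is given as CPM, counts scaled to the same library total, after TMM scaling (trimmed mean of M-values), and fold changes are log2 values of GrB-Fc-KS49 over IgG from edgeR's quasi-likelihood test across 19718 genes, all 10 genes described here among them. A gene was called changed at a Benjamini-Hochberg adjusted p under 0.05 over all genes tested. In that fit 0 of 19718 genes were called (0% of those tested), while 3404 genes (17.3%) had an unadjusted p under 0.05 in the higher direction and 3511 (17.8%) in the lower direction. DESeq2 called 4747 genes on the same counts. The CPM of Krt8, a keratin of simple epithelium, was 444 ± 23.3 under IgG and 528 ± 108 under GrB-Fc-KS49 (SD, n = 4 each). Epcam and Krt18, also listed for tumour epithelium, had means of 4.1 and 54.3 CPM under IgG. Such levels show epithelial transcripts and do not identify the cell line. The samples also held transcripts of other cells, such as C1qb, a complement gene of macrophages, at 128 ± 24.2 CPM and 288 ± 148 CPM. In bulk tissue, fewer cells of a type and less RNA per cell cannot be told apart.

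The CXCR2 ligands did not differ between the groups beyond the spread between tumours, and their fold changes were small for Cxcl1 and Cxcl5. Cxcl1, a chemokine induced by NF-kB in many stromal and epithelial cells, was at 8.78, 12.4, 12.9 and 10.2 CPM in IgG replicates 1 to 4 and, in the same order, at 10.3, 13.2, 3.57 and 15.8 CPM under GrB-Fc-KS49. The lowest and the highest tumour were both in the treated group, with GrB-Fc-KS49 replicate 3 below every control, and the groups overlapped. The means were 11 ± 1.91 and 10.7 ± 5.28 CPM, a log2 fold change of -0.04 ± 0.39 (SE; 95% interval -0.93 to 0.85; edgeR adjusted p = 0.953). Cxcl2, a chemokine of activated macrophages and neutrophils, was at 15.2, 7.32, 7.53 and 5.9 CPM in the IgG tumours and at 11.2, 16.7, 2.84 and 12.4 CPM in the GrB-Fc-KS49 tumours. IgG replicate 1 stood at about the level of the high treated tumours and GrB-Fc-KS49 replicate 3 was lowest of all, so that the groups overlapped at both ends. The log2 fold change of Cxcl2 was 0.26 ± 0.50 (SE; 95% interval -0.89 to 1.41; edgeR adjusted p = 0.737), and it became -0.02 without GrB-Fc-KS49 replicate 2, 0.57 without replicate 3 of that group and 0.66 without IgG replicate 1.

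Cxcl3 had the widest spread of the ligands. It was at 9.56, 3.65, 5.28 and 2.43 CPM in the IgG tumours and at 12.2, 15.6, 0.868 and 5.67 CPM in the GrB-Fc-KS49 tumours, an 18-fold range among the treated tumours. GrB-Fc-KS49 replicates 1 and 2 were above every control and replicate 3 was below every control. The log2 fold change was 0.72 ± 0.76 (SE; 95% interval -1.01 to 2.45; edgeR adjusted p = 0.52). It was 0.26 without GrB-Fc-KS49 replicate 2, 1.09 without replicate 3 of that group and 1.20 without IgG replicate 1. The ligand with the highest level in CPM was Cxcl5, which in the mouse is made by epithelium among other cells. Its levels were 12.6, 16.1, 21 and 11.7 CPM under IgG and 17.6, 23.2, 6.65 and 18 CPM under GrB-Fc-KS49, which overlapped, with a log2 fold change of 0.09 ± 0.35 (SE; 95% interval -0.72 to 0.91; edgeR adjusted p = 0.868). Estimated counts of Cxcl2 and Cxcl3 were off a whole number by more than 0.05 count in 5 of 8 samples each, and how reads were split between these related genes is uncertain.

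**Figure D1:**
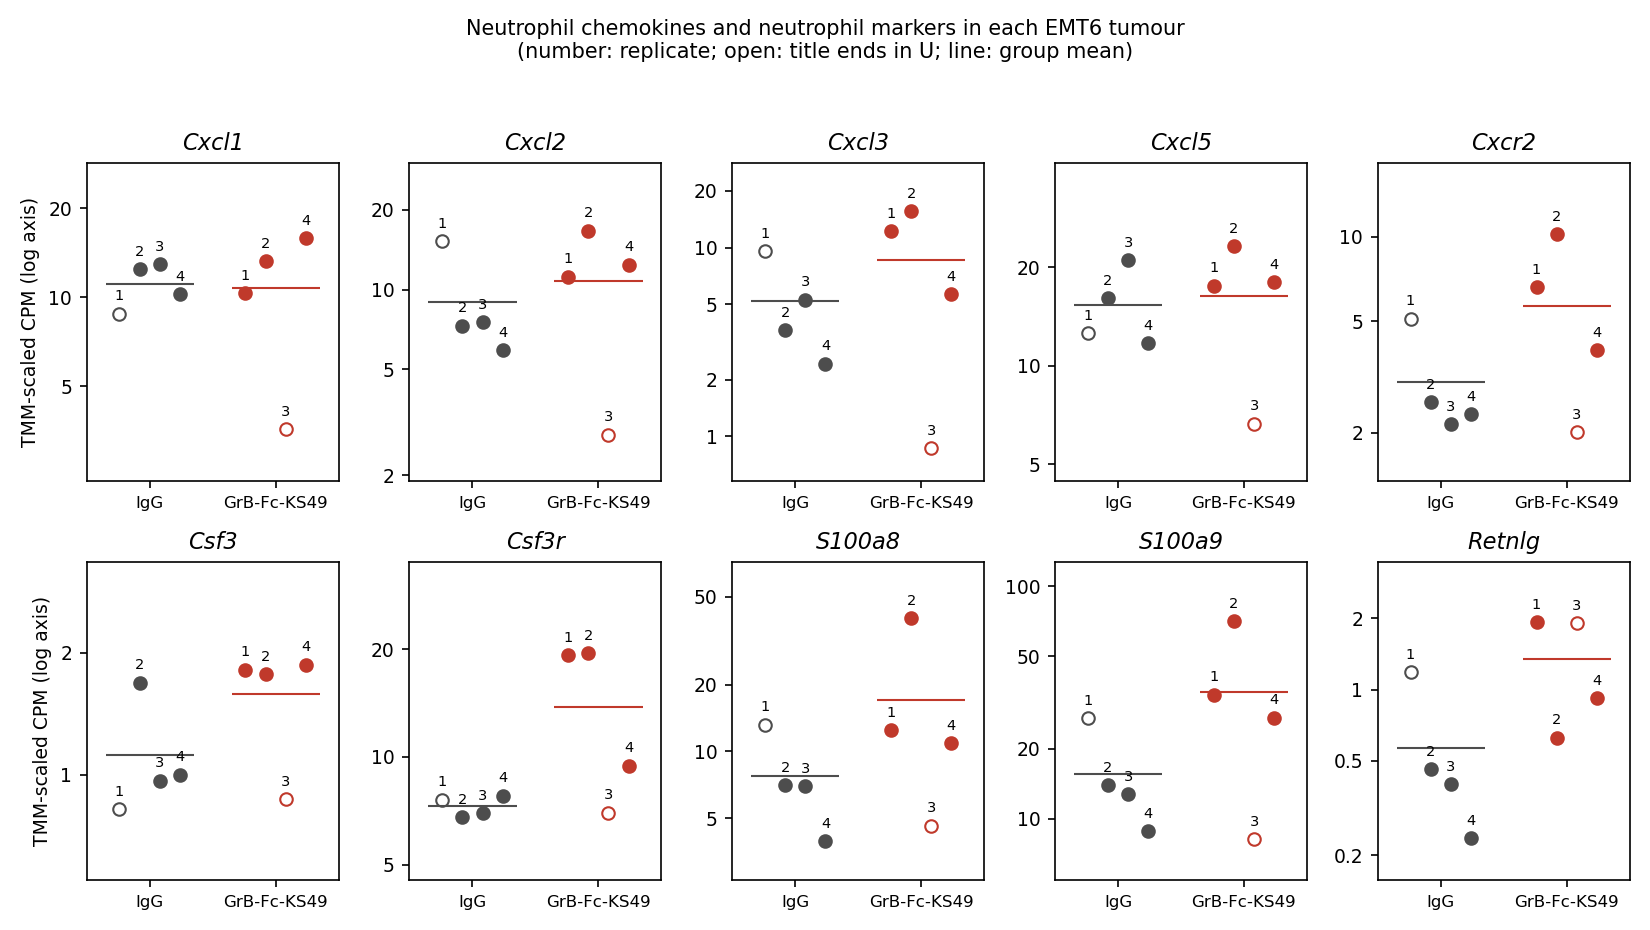
TMM-scaled CPM (log axis, a different range in each panel) of each gene in the 4 IgG and 4 GrB-Fc-KS49 tumours, with points numbered by replicate, open points for the samples whose title ends in U and lines at the group means. In every panel but that of Retnlg the open GrB-Fc-KS49 point (replicate 3) is the lowest of its group, and no gene separates the groups.

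Cxcr2, the receptor that neutrophils use to follow these ligands, had a mean 1.87 times as high in the treated tumours, which did not pass the test. The gene (ENSMUSG00000026180) lies at chr1:74193148-74200405 on the plus strand. It was at 5.09, 2.57, 2.14 and 2.33 CPM in the IgG tumours and at 6.59, 10.2, 2.01 and 3.93 CPM in the GrB-Fc-KS49 tumours. Among the controls replicate 1 stood apart, at about the level of the middle of the treated group, and GrB-Fc-KS49 replicate 3 was the lowest of the 8. The log2 fold change was 0.90 ± 0.49 (SE; 95% interval -0.23 to 2.04; edgeR adjusted p = 0.22), and it was 0.47 without GrB-Fc-KS49 replicate 2.

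Csf3 and Csf3r, the cytokine and receptor that sustain neutrophil production, both had higher means in the treated group, and Csf3r came closest to the threshold of the 10 genes. Csf3r (ENSMUSG00000028859, chr4:125918343-125938233, plus strand) was at 7.59, 6.79, 6.95 and 7.8 CPM in the IgG tumours and at 19.2, 19.5, 6.98 and 9.44 CPM in the GrB-Fc-KS49 tumours. The controls lay within a narrow range, 3 treated tumours were above all of them and GrB-Fc-KS49 replicate 3 lay among them. The means were 7.28 ± 0.488 and 13.8 ± 6.53 CPM (SD, n = 4 each), a log2 fold change of 0.92 ± 0.32 (SE; 95% interval 0.19 to 1.65; edgeR adjusted p = 0.0869). DESeq2 gave Csf3r the same fold change and an adjusted p of 0.0227, and it was the 1 gene of the 10 that DESeq2 called, where it called 12.3% of 18457 genes in the higher direction. The adjusted p of Csf3r lay between 0.0227 and 0.195 over 20 other settings. Its estimated counts were off a whole number by more than 0.05 count in 6 samples.

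Csf3 was the least abundant of the 10 per kilobase of exon. The gene (ENSMUSG00000038067, chr11:98592089-98594455, plus strand) had 68 to 150 counts per sample. Its levels were 0.822, 1.69, 0.966 and 1.0 CPM under IgG and 1.82, 1.77, 0.868 and 1.87 CPM under GrB-Fc-KS49. The 3 treated tumours at nearly the same level were above every control, and GrB-Fc-KS49 replicate 3 lay near the lowest control. The log2 fold change was 0.50 ± 0.32 (SE; 95% interval -0.22 to 1.21; edgeR adjusted p = 0.285), and it was 0.76 without IgG replicate 2.

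The 3 neutrophil products had the highest fold changes of the 10, and none passed the test. S100a8 (ENSMUSG00000056054, chr3:90576285-90577342, plus strand) was at 13.2, 7.04, 6.98 and 3.94 CPM in the IgG tumours and at 12.5, 39.9, 4.62 and 10.9 CPM in the GrB-Fc-KS49 tumours. GrB-Fc-KS49 replicate 2 alone was above every control. The means were 7.78 ± 3.86 and 17 ± 15.6 CPM, with a log2 fold change of 1.13 ± 0.63 (SE; 95% interval -0.33 to 2.58; edgeR adjusted p = 0.233). Its partner S100a9 (ENSMUSG00000056071, chr3:90599939-90603028, minus strand) was at 27, 13.9, 12.7 and 8.82 CPM under IgG and at 34.1, 70.9, 8.14 and 27.2 CPM under GrB-Fc-KS49. Here 3 treated tumours were above every control, replicate 4 by a narrow margin, and replicate 3 was below all of them. The log2 fold change was 1.17 ± 0.60 (SE; 95% interval -0.20 to 2.53; edgeR adjusted p = 0.196). The CPM of S100a9 was 1.76 to 2.71 times that of S100a8 in each of the 8 tumours, while that of Cxcl1 was 0.578 to 1.72 times that of Cxcl2.

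The S100 values leaned on GrB-Fc-KS49 replicate 2, a tumour that also held transcripts of skin. Without it the mean of the treated group was 9.36 CPM for S100a8 and 23.1 CPM for S100a9, and the log2 fold changes were 0.28 and 0.57. A list of 11 measured keratinocyte and skin genes summed to 2325 CPM in this tumour and to between 26.7 and 40.3 CPM in the other 7, with Krt10, a keratin of cornifying skin, at 725 CPM against at most 1.97 CPM elsewhere. Calprotectin is also a product of keratinocytes, and the part of skin in these S100 levels was not tested. Retnlg was at its lowest level of the treated group in that tumour.

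Retnlg (ENSMUSG00000022651, chr16:48692984-48694859, plus strand) had 19 to 160 counts per sample. It was at 1.18, 0.461, 0.4 and 0.236 CPM in the IgG tumours and at 1.92, 0.626, 1.9 and 0.92 CPM in the GrB-Fc-KS49 tumours. It was the gene of the 10 for which GrB-Fc-KS49 replicate 3 was not the lowest treated tumour, and IgG replicate 1 kept the groups from separating. The log2 fold change was 1.23 ± 0.55 (SE; 95% interval -0.02 to 2.48; edgeR adjusted p = 0.147), and it was 1.89 without IgG replicate 1.

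Levels of different genes were set side by side per kilobase of exon, by the union of annotated exons. For Cxcl1, Cxcl2 and Cxcl3 that union, 1875, 2068 and 3498 bases, was as long as the whole gene. Their levels per kilobase can thus be too low beside the others, and the order is approximate. By this measure S100a9 was highest in the IgG tumours at a mean of 29.9 CPM per kilobase, followed by S100a8 at 11.2, Cxcl5 at 8.23, Cxcl1 at 5.89, Cxcl2 at 4.34, Csf3r at 2.02, Cxcl3 at 1.5, Cxcr2 at 0.995, Retnlg at 0.962 and Csf3 at 0.793 CPM per kilobase. The order in GrB-Fc-KS49 tumours was the same except that Retnlg, at 2.26 CPM per kilobase, came before Cxcr2, at 1.87. The single-tumour levels of neighbours in the order overlapped for 8 of 9 neighbouring pairs in the IgG tumours, all but Cxcl2 with Csf3r, and for all 9 in the GrB-Fc-KS49 tumours. S100a9 was at 67.2 and S100a8 at 24.5 CPM per kilobase in the treated tumours.

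By edgeR 0 of the 10 genes were called. Over the 10 genes, 9 had a higher and 1 (Cxcl1, whose log2 fold change became 0.01 under upper quartile scaling) a lower fitted level in GrB-Fc-KS49 tumours, and the median log2 fold change was 0.81, where all genes tested had a median of 0.03 and 53.2% were higher. At an unadjusted p under 0.05 there was 1 of 10, Csf3r, in the higher direction, where 17.3% of all genes were. For 0 of 10 were all treated tumours above all controls, where 10.3% of all genes were. An exact 2-sided permutation test over all 70 assignments, run for each of the 10 genes and left unadjusted, gave p = 0.0857 for Csf3r, 0.114 for Retnlg, 0.257 for both Cxcr2 and Csf3, 0.286 for S100a9 and 0.343 for S100a8. For the ligands the exact permutation p was 0.714 for Cxcl3, 0.914 for Cxcl1 and Cxcl2 and 1 for Cxcl5, and 0.0286 is the smallest that 4 against 4 allows.

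**Figure D2:**
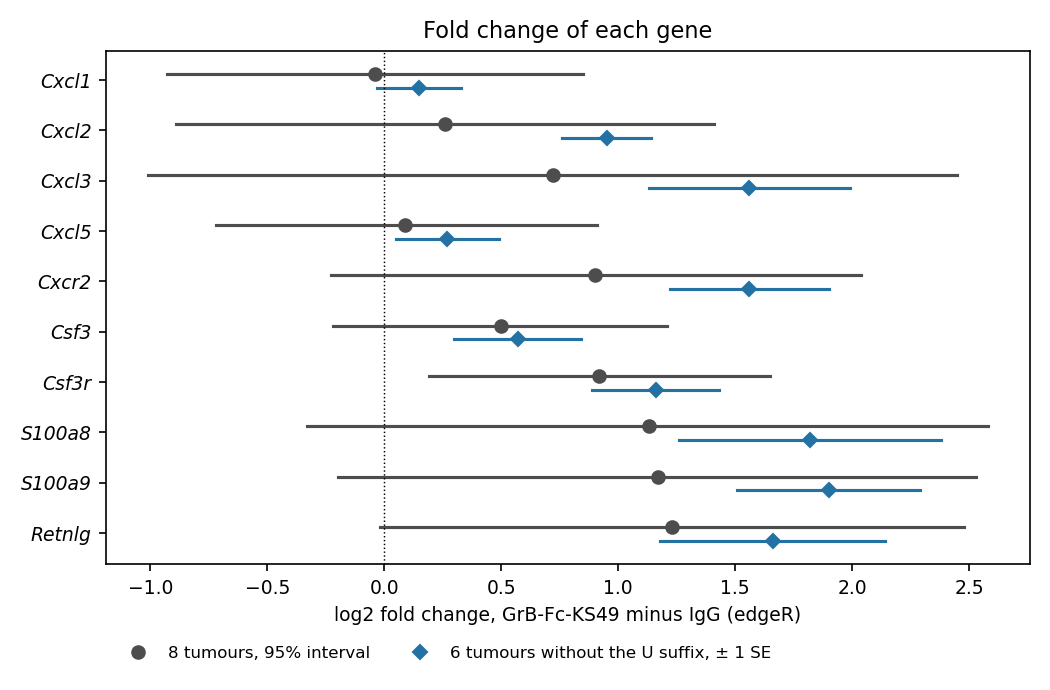
Log2 fold change of each gene (GrB-Fc-KS49 minus IgG, edgeR), as circles with 95% intervals for all 8 tumours and diamonds with 1 SE to either side for the 6 tumours whose title has no U suffix. With all 8 tumours the interval of Csf3r alone lies above 0, and without the U samples 7 of the genes have fold changes of 0.95 to 1.90.

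The comparison changed when the samples with the U suffix were left out. GrB-Fc-KS49 replicate 3 was the lowest of its group for 9 of the 10 genes and the lowest of all 8 tumours for 6 of them. IgG replicate 1 was the highest control for 6: Cxcl2, Cxcl3, Cxcr2, S100a8, S100a9 and Retnlg. Between these 2 tumours alone, a pair with no replicate, the treated tumour was the lower for 8 of the 10 genes, with Csf3 at 1.06 times and Retnlg at 1.61 times the control. At the other end GrB-Fc-KS49 replicate 2 was the highest of all 8 tumours for 7 genes, all but Cxcl1, Csf3 and Retnlg.

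With both U samples left out, 3 tumours remained in each group and all 10 fold changes were above 0, with a median of 1.36. All treated tumours were then above all controls for 8 of the 10 genes, all but Cxcl1 and Cxcl5, where 16.2% of the 19767 genes tested were. At an unadjusted p under 0.05 there were 7 of 10, where 13.9% of all genes were, and 0 passed after adjustment (edgeR, smallest adjusted p among the 10 = 0.162). Cxcl2 was then at 11.2 to 16.7 CPM against 5.9 to 7.53 CPM, with a log2 fold change of 0.95 ± 0.19 (SE). The same values were 1.56 ± 0.43 for Cxcl3 and 1.56 ± 0.34 for Cxcr2. For S100a9 they were 27.2 to 70.9 CPM against 8.82 to 13.9 CPM and 1.90 ± 0.39 (SE), and for S100a8 the log2 fold change was 1.82 ± 0.56 (SE). Csf3r had 1.16 ± 0.27 and Retnlg 1.66 ± 0.48 (SE), while Cxcl1 stayed at 0.15 ± 0.18 and Cxcl5 at 0.27 ± 0.22 (SE). With 3 against 3 the smallest exact permutation p is 0.1. When all 8 tumours were kept and the suffix was a covariate, the median log2 fold change was 0.76, against 0.81 without the covariate. Of the 10 genes 8 were then higher, all but Cxcl1 and Cxcl5. The values were 0.24 for Cxcl2, 0.67 for Cxcl3, 0.91 for Cxcr2, 1.11 for S100a8 and 1.14 for S100a9. In that fit 2 of 10 were at an unadjusted p under 0.05, Csf3r and Retnlg, and 0 passed after adjustment. What the suffix stands for, and so whether the 2 samples that carry it should be set apart, was not tested.

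Leaving out GrB-Fc-KS49 replicate 3 alone gave 5 of 10 genes at an unadjusted p under 0.05 in edgeR (Cxcr2, Csf3, Csf3r, S100a8 and S100a9), where 18.8% of 19992 genes were in that direction, and separated groups for Csf3, Csf3r and S100a9, where 14.4% of genes were. Leaving out IgG replicate 1 alone gave 4 at that p (Cxcr2, Csf3r, S100a9 and Retnlg), where 14.1% of 20145 genes were in that direction, and separated groups for Retnlg, where 13.4% of genes were. Leaving out GrB-Fc-KS49 replicate 1 left 0 of 10 at that p, where 12.3% of 19944 genes were in that direction, and 0 with separated groups, where 10.8% were.

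**Figure D3:**
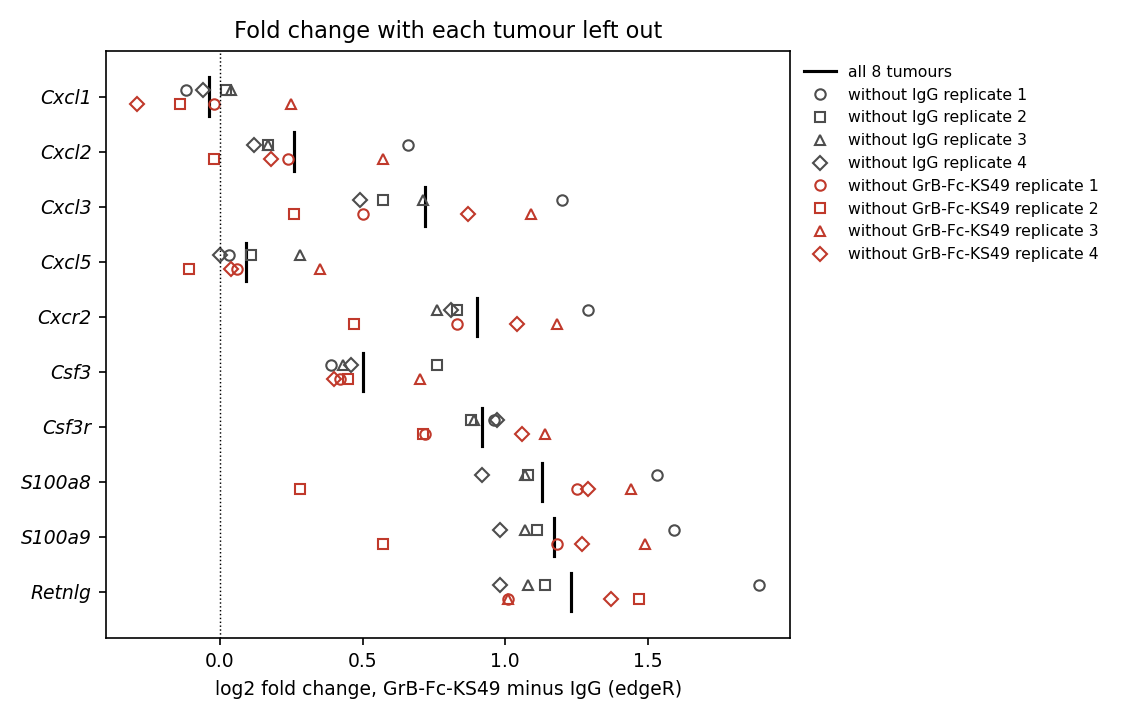
Log2 fold change of each gene (GrB-Fc-KS49 minus IgG, edgeR) with all 8 tumours (black bars) and with each tumour left out in turn (symbols by tumour). Without GrB-Fc-KS49 replicate 2 S100a8 falls to 0.28 and S100a9 to 0.57, and without replicate 3 of that group Cxcl1 moves to 0.25.

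Among other genes of neutrophils, 33 of 37 listed were measured and 27 had enough counts to be tested. Of these 23 had higher and 4 lower fitted levels in GrB-Fc-KS49 tumours, 6 were at an unadjusted p under 0.05, all higher, 0 were called by edgeR, and the median log2 fold change was 0.84. Of all genes tested 53.2% were higher and 17.3% were at that p in the higher direction, and 10.3% had separated groups with the treated tumours above. The median of the list was 0.56 without GrB-Fc-KS49 replicate 1 and 1.05 without both U samples. G0s2, an inhibitor of adipose triglyceride lipase that is abundant in neutrophils, was at 1.91, 1.63, 1.08 and 0.967 CPM under IgG and 3.33, 3.01, 2.46 and 3.39 CPM under GrB-Fc-KS49, with no overlap (log2 fold change 1.12 ± 0.25, SE; edgeR adjusted p = 0.0619). Pglyrp1, a peptidoglycan recognition protein of neutrophil granules, was at 1.05, 1.27, 0.98 and 0.88 CPM under IgG and 3.81, 1.89, 1.51 and 1.74 CPM under GrB-Fc-KS49, also with no overlap (log2 fold change 1.10 ± 0.31, SE; edgeR adjusted p = 0.0639). These 2 were the genes of the list whose groups separated with the U samples kept in. The others at an unadjusted p under 0.05 were Wfdc21, Asprv1, Lrg1 and Fpr2. Without GrB-Fc-KS49 replicate 2 the log2 fold change of Asprv1 went from 5.65 to 0.84 and that of Wfdc21 from 2.49 to 2.02. That of Lrg1 went from 1.08 to 0.39 without replicate 3 of that group, and that of Fpr2 from 1.51 to 0.67 without replicate 1. With a treated tumour left out the lowest was 1.07 for G0s2 and 0.71 for Pglyrp1. Among the lower genes Trem1, a receptor that amplifies myeloid inflammation, had a log2 fold change of -0.13 ± 0.20, and Mmp9, a gelatinase that tumour and stromal cells also make, of -0.29 ± 0.33 (SE).

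Some of the listed genes are also expressed by other cells, and which cells gave their high values in single tumours was not tested. G0s2 acts on a lipase of adipose tissue. Of 8 adipocyte markers tested, 8 had higher fitted levels in GrB-Fc-KS49 tumours, with a median log2 fold change of 1.52, where 53.2% of all genes were higher. The part of adipose cells in the G0s2 levels was not tested. Asprv1, a protease gene that neutrophils and cornifying skin both express, reached 97.6 CPM in the treated tumour with skin transcripts, replicate 2, and lay between 0.264 and 1.35 CPM in the other 7. Lcn2, a siderophore-binding protein of neutrophil granules and of inflamed epithelium, reached 22.9 CPM in replicate 3 of that group and lay between 2.2 and 6.26 CPM elsewhere, so that the tumour with the lowest levels of most of the 10 genes had the highest level of Lcn2. The same tumour had the highest levels of Ltf, Prtn3 and Lrg1 of this list, at 7.96, 1.58 and 49.5 CPM, and of Ngp, at 0.19 CPM. It had the lowest levels of others, such as Fpr2 and Trem1, at 3.03 and 9.23 CPM. Asprv1, Lcn2, Ltf, Prtn3, Lrg1, Ngp and Fpr2 were chosen after their values were seen.

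The marker that defines mouse neutrophils, Ly6g, was near its limit of detection. It was at 0.0121, 0.0527, 0 and 0.0124 CPM in the IgG tumours and at 0.113, 0.0399, 0 and 0.0373 CPM in the GrB-Fc-KS49 tumours, at most 9.04 counts in a sample, and was too low to test. A count of 0 allows up to 0.0405 CPM in IgG replicate 3 and up to 0.0371 CPM in GrB-Fc-KS49 replicate 3 (3 counts, for counting error only). The granule genes of immature neutrophils Camp, Ngp and Mpo were likewise too low to test, with at most 0.333 CPM of Mpo and 0.19 CPM of Ngp in any tumour. Other granule genes of the list had enough counts to be tested. Their log2 fold changes were 1.29 ± 0.91 for Ltf, 1.26 ± 0.57 for Lcn2, 1.12 ± 0.60 for Prtn3 and -0.03 ± 0.79 for Ctsg (SE; edgeR adjusted p = 0.332, 0.153, 0.215 and 0.981). Cxcr1, the other receptor of this family, was at most 0.125 CPM.

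A list of 7 other genes of CXC chemokines and chemokine receptors reached beyond the CXCR2 axis, with Cxcl12, its receptor genes Cxcr4 and Ackr3, and Pf4. Of these 6 of 7 were tested, and 3 were higher and 3 lower. At an unadjusted p under 0.05 there were 2, both higher (17.3% of all genes), and the median log2 fold change was 0.16. Without IgG replicate 1 that median was 0.90, and without both U samples 0.64. Ackr1, the atypical receptor by which venules and red cells bind CXCR2 ligands, was at 0.481 ± 0.103 CPM under IgG and 1.44 ± 0.941 CPM under GrB-Fc-KS49, a log2 fold change of 1.58 ± 0.48 (SE; edgeR adjusted p = 0.0682). Cxcl12, the ligand that retains neutrophils in bone marrow, was at 16.8 ± 5.12 and 34.2 ± 15.8 CPM, with a log2 fold change of 1.03 ± 0.39 (SE; edgeR adjusted p = 0.107). Ppbp, a platelet chemokine that binds CXCR2, was at 8.81 CPM in IgG replicate 1 and at 0.524 to 2.09 CPM in the other 7 tumours, and its log2 fold change was -0.96 ± 0.90 (SE). Ackr3, a scavenger of Cxcl12 protein, had a log2 fold change of -0.14 ± 0.13 (SE).

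Of 24 tested inducers and limiters of neutrophil chemokines, 18 were higher and 6 lower, with 2 higher and 3 lower at an unadjusted p under 0.05 (17.3% and 17.8% of all genes), 0 called by edgeR and a median log2 fold change of 0.25, which became 0.08 when GrB-Fc-KS49 replicate 1 was left out and 0.14 when replicate 2 was. The largest fold changes of the list, picked after their values were seen, had wide errors: 1.94 ± 1.01 for Il36g, 1.10 ± 0.50 for Il1b, 0.93 ± 0.66 for Il1a, 0.89 ± 0.76 for Csf2 and 0.84 ± 0.43 for Tnf, all cytokine genes (log2 fold change ± SE; edgeR adjusted p = 0.2, 0.153, 0.334, 0.423 and 0.192). Cebpd, a factor that takes part in the transcription of acute-phase genes, had a log2 fold change of 0.44 ± 0.15 (edgeR adjusted p = 0.0795) and Nfkbia, the inhibitor induced by NF-kB, one of 0.33 ± 0.14 (SE; edgeR adjusted p = 0.136). Traf3ip2, the adaptor of the IL-17 receptor, had -0.28 ± 0.11 and Csf1, the macrophage growth factor, -0.35 ± 0.14 (SE; edgeR adjusted p = 0.105 and 0.12). The NF-kB subunit gene Nfkb1 was the gene of this list whose groups separated, where 15.3% of all genes did with the treated tumours below, at 80.9 to 82.0 CPM under IgG against 63.8, 77.6, 65.2 and 77.1 CPM under GrB-Fc-KS49, a log2 fold change of -0.20 ± 0.08 (SE; edgeR adjusted p = 0.122).

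Genes of leukocyte adhesion had 11 higher and 2 lower of 13 tested, 5 at an unadjusted p under 0.05, all higher (17.3% of all genes), 0 called by edgeR and a median log2 fold change of 0.38. F11r, a junctional adhesion molecule, was at 41.8 ± 6.2 CPM under IgG and 53.8 ± 8.34 CPM under GrB-Fc-KS49, a log2 fold change of 0.36 ± 0.14 (SE; edgeR adjusted p = 0.107), and Icam2, an integrin ligand of endothelium, had 0.38 ± 0.15 (SE; edgeR adjusted p = 0.113). Icam2 and Cd47, a surface protein that inhibits phagocytosis, were the 2 genes of this list whose groups separated (10.3% of all genes in that direction). The integrin subunit Itgam, carried by neutrophils and macrophages, had a log2 fold change of -0.13 ± 0.20, and the endothelial ligand Vcam1 one of -0.14 ± 0.08 (SE).

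Receptors for calprotectin and for other neutrophil attractants had 8 higher and 2 lower of 10 tested, with 1 at an unadjusted p under 0.05 in each direction (17.3% and 17.8% of all genes), 0 called by edgeR and a median log2 fold change of 0.19, which became 0.06 without GrB-Fc-KS49 replicate 1. Bsg, a receptor reported for S100A9, was at 671 ± 36.3 CPM under IgG and 830 ± 111 CPM under GrB-Fc-KS49, a log2 fold change of 0.31 ± 0.10 (SE; edgeR adjusted p = 0.0836). P2ry2, a nucleotide receptor, had -0.60 ± 0.23 (SE; edgeR adjusted p = 0.107). Ager, the receptor RAGE, had 0.54 ± 0.28, and Tlr4, the endotoxin receptor that calprotectin also engages, had -0.43 ± 0.20 (SE).

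Markers of other cells varied between the same tumours, and their part in the values of the 10 genes was not tested. Monocytes also express Csf3r, S100a8 and S100a9, and a list of 9 monocyte markers summed to 197 to 348 CPM under IgG and 184 to 306 CPM under GrB-Fc-KS49. Ly6c2, the defining gene of classical monocytes, was at 2.94, 4.21, 6.25 and 5.44 CPM under IgG and 53.2, 19.6, 2.4 and 4.75 CPM under GrB-Fc-KS49, with the high values in the 2 tumours where Csf3r was highest and the lowest in replicate 3. Of the 9 monocyte markers 6 had higher and 3 lower fitted levels in GrB-Fc-KS49 tumours, where 53.2% of all genes were higher. The lower ones were Ccr2, Chil3 and F13a1, with log2 fold changes of -0.18 ± 0.16, -0.32 ± 0.38 and -0.84 ± 0.77 (SE). F13a1 was at 20.1, 14.4, 127 and 36.9 CPM under GrB-Fc-KS49, highest of that group in replicate 3. The 10 macrophage markers summed to 1143 to 1494 CPM and 1481 to 3199 CPM, and the 7 T cell markers to 1.8 to 6.31 CPM and 51.6, 28.3, 4.69 and 15.3 CPM. GrB-Fc-KS49 replicate 3 thus had the lowest T cell sum of its group, while its 8 adipocyte markers summed to 424 CPM against 50.8 to 136 CPM in the other 7 tumours. In GrB-Fc-KS49 replicate 1 the 10 skeletal muscle markers summed to 2512 CPM, and elsewhere to at most 400 CPM. Of 7 listed eosinophil markers 4 were measured, and they summed to at most 2.09 CPM. The 8 mast cell and basophil markers summed to 11.7 to 18.9 CPM under IgG and 11.2 to 62.7 CPM under GrB-Fc-KS49, the 6 B cell markers to 0.653 to 1.19 and 1.23 to 5.62 CPM, and the 6 erythroid markers to 138 to 379 and 109 to 539 CPM. Endothelial sums were 167 to 313 and 227 to 338 CPM, fibroblast sums 4190 to 8170 and 3245 to 9207 CPM, and sums of tumour epithelium 548 to 631 and 538 to 865 CPM.

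**Figure D4:**
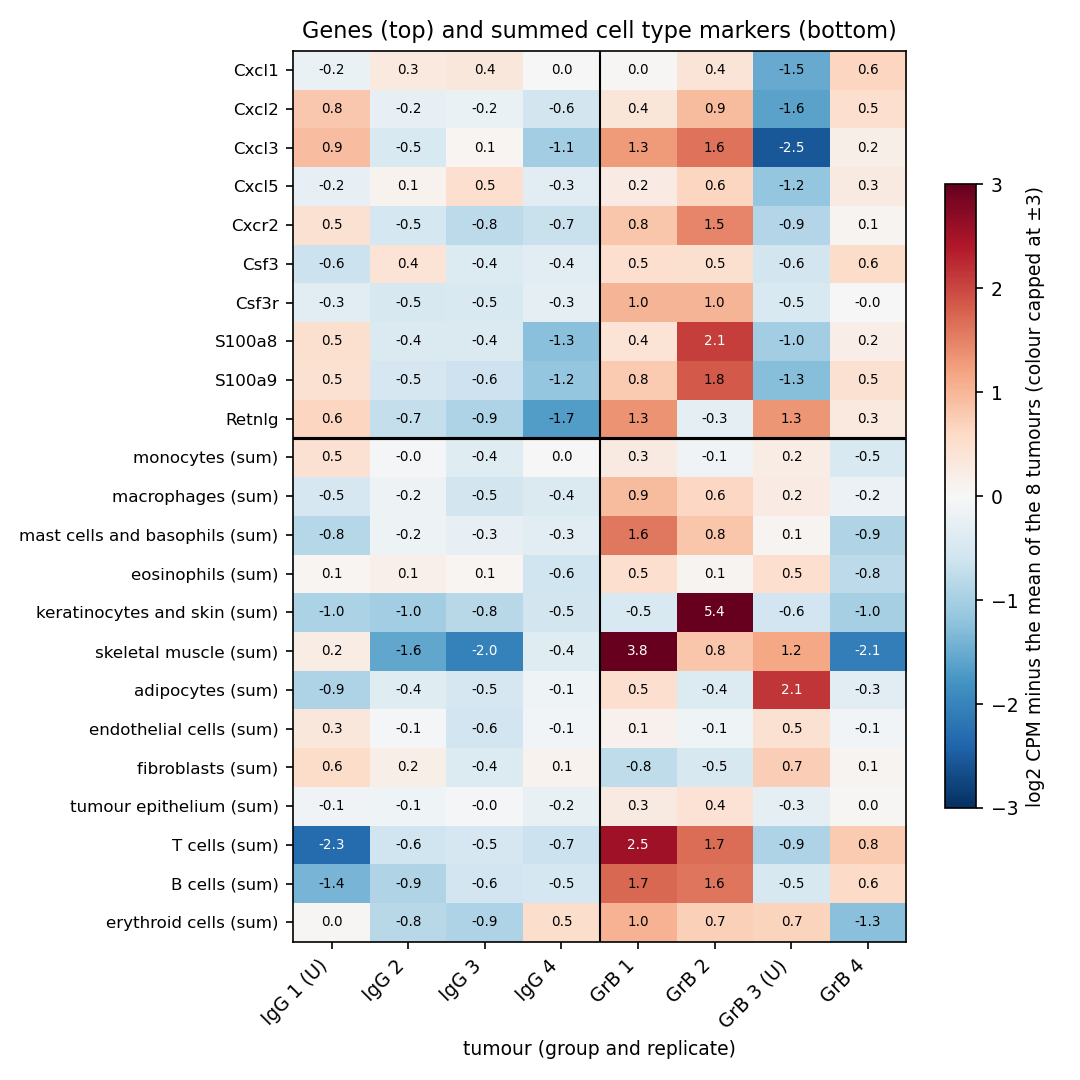
Log2 CPM of each of the 10 genes (above the line) and of the summed markers of 13 cell types (below it) in each tumour, as the difference from the mean of the 8 tumours, with colours capped at 3 in either direction. GrB-Fc-KS49 replicate 2 is high for S100a8, S100a9 and skin, and replicate 3 of that group is low for 9 of the 10 genes and high for adipocyte markers.

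S100a8, S100a9 and Cxcr2 varied together across the 8 tumours. Of the 6 pairs correlated on log2(CPM + 0.5), S100a8 and S100a9 had r = 0.98 and rho = 0.90 (exact permutation p = 0.000372 for r and 0.00456 for rho, adjusted p over the 6 pairs 0.00171 and 0.0137), and r = 0.98 without the 2 tumours farthest from the median of S100a8. S100a8 and Cxcr2 had r = 0.94 and rho = 0.90 (exact permutation p = 0.00057 and 0.00456, adjusted p = 0.00171 and 0.0137), and r = 0.93 without those 2 tumours. Cxcr2 and Csf3r had r = 0.88 and rho = 0.74 (exact permutation p = 0.00603 and 0.0458, adjusted p = 0.0121 and 0.0687), which fell to r = 0.56 without GrB-Fc-KS49 replicates 1 and 2 and so rested on them.

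The ligand pairs did not pass after adjustment. Cxcl1 and Cxcl2 had r = 0.71 and rho = 0.52 (exact permutation p = 0.0595 and 0.197, adjusted p = 0.0714 and 0.197), and r = -0.13 without GrB-Fc-KS49 replicates 3 and 4. Cxcl1 and Csf3 had r = 0.61 and rho = 0.74 (exact permutation p = 0.0467 and 0.0458, adjusted p = 0.0701 and 0.0687), and r = 0.49 without those tumours. Cxcl5 and S100a8 had r = 0.64 and rho = 0.57 (exact permutation p = 0.0889 and 0.151, adjusted p = 0.0889 and 0.181), and r = 0.38 without the 2 farthest. Over the 6 tumours without the suffix r was 0.97 for S100a8 with S100a9, 0.93 for S100a8 with Cxcr2, 0.96 for Cxcr2 with Csf3r, 0.49 for Cxcl1 with Cxcl2, 0.36 for Cxcl1 with Csf3 and 0.78 for Cxcl5 with S100a8. These values pool both treatments, and a group of 4 is too small for a correlation of its own.

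The genes most like S100a8 over the 8 tumours, by Pearson's r among 13563 genes, were Il36g, an interleukin-36 cytokine, at r = 0.960, Tgm1, a transglutaminase of the cornified envelope, at 0.940, and Dedd2 at 0.920. In GrB-Fc-KS49 replicate 2 the level of Il36g was 9.83 CPM, and in the others 0.397 to 1.75 CPM. Those most like Cxcr2 were the long non-coding RNA Mirt2 at r = 0.972, Trim30b at 0.967 and Rfc4, a subunit of the clamp loader of DNA replication, at 0.961, although Rfc4 spanned only 14.8 to 16.8 CPM. Those most like Cxcl1 were Ttc39c at r = 0.991, Ndrg1, a gene induced by hypoxia, at 0.985, and the kinase gene Plk3 at 0.976. All 3 had their lowest level in GrB-Fc-KS49 replicate 3, with Ndrg1 at 243 CPM there against 435 to 552 CPM in the other 7. These likenesses are descriptions picked as the highest of many genes, with no test.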

How the data were processed

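Per the labels' protocols, RNA libraries of 8 tumours were made with a KAPA stranded mRNA kit. Per the submitters' processing notes, bcl2fastq 2.19.1.403 and STAR with the GRCm39 genome were used. The sources used here do not give the counting program. The authors deposited estimated counts per gene, and a table of CPM made from them after adding 0.0001 count to each gene. The deposited estimated counts were rounded to integers. Genes were filtered with filterByExpr, scaled by TMM and compared with edgeR 4.0.16 in R 4.3.3 (robust quasi-likelihood F tests, Benjamini-Hochberg adjustment over 19718 genes), after the code had been tested on simulated data. Single genes were also compared by an exact permutation test on log2(CPM + 0.5). Alternatives were DESeq2 1.42.0, limma 3.58.1 with voom or on the deposited CPM (log2 of CPM plus 1 or 0.25), other scaling and filters, and samples left out. Replicate numbers follow accession order and pair nothing. Levels per kilobase used the union of exons in a GENCODE annotation of GRCm38, matched by gene identifier. Promoter windows are from RefSeq. Groups were taken from the treatment labels.

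The 10 genes and all gene lists were chosen with earlier results of these data known. Genes were named by a rule: the 10 with every value, from each pathway list up to 2 per direction with the smallest p at a mean of at least 0.5 CPM, up to the first 3 markers of each cell type list, the 3 genes most like S100a8, Cxcr2 and Cxcl1, and genes that make up counts of up to 5. Ly6g, Camp, Ngp, Mpo, Cxcr1, Asprv1, Lcn2, Ltf, Prtn3, Ctsg, Lrg1, Wfdc21, Fpr2, Il1a, Il1b, Csf2, Tnf and, beside the inducers, Il36g were named outside this rule, after their values were seen.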

Additional observations from a re-analysis of the deposited data

Results flagged for a closer look

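Groups of 4 tumours were searched for a sample whose gap to its nearest neighbour was a larger part of the range of the group than Dixon's 95% critical value, over 56 groups (the 10 genes and 18 summed gene lists in each treatment), and chance marks about 1 group in 20. Among the 10 genes, Cxcr2 in IgG replicate 1 stood high at 5.09 CPM, against 2.14 to 2.57 CPM in the other controls. Csf3 in GrB-Fc-KS49 replicate 3 stood low at 0.868 CPM, against 1.77 to 1.87 CPM. Both of these samples carry the U suffix.

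Among the lists, the other genes of CXC chemokines and chemokine receptors summed to 93.4 CPM in GrB-Fc-KS49 replicate 4, against 132 to 136 CPM in its group. Eosinophil markers summed to 0.967 CPM in IgG replicate 4, against 1.53 to 1.62 CPM. T cell markers summed to 1.8 CPM in IgG replicate 1, against 5.65 to 6.31 CPM in the other controls. Skin markers summed to 2325 CPM in GrB-Fc-KS49 replicate 2, against 27.7 to 40.3 CPM, and skeletal muscle markers to 2512 CPM in GrB-Fc-KS49 replicate 1, against 42.9 to 400 CPM.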

How the results depend on the processing

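No paired analysis was possible because replicate numbers were given in accession order and pair no samples. The count of genes called was 0 with all 8 tumours in edgeR, 4747 with DESeq2, 1 with limma-voom (Gm15655) and 1291 with limma-voom and sample weights, and ranged from 0 to 3447 with each replicate left out, where only the sets without GrB-Fc-KS49 replicate 1 (1260) or replicate 4 (3447) gave any. Of the 10 genes described here, 1 (Csf3r) was called by DESeq2 and 0 in the other settings. The number at an unadjusted p under 0.05 was 1, became 2 under upper quartile scaling, library totals alone, DESeq2, limma on either log2 scale and the U suffix as a covariate, 7 without both U samples, and ranged from 0 to 5 with each replicate left out. Of all genes, in either direction, 35.1% were at that p with all 8 tumours. The share was 32.2% to 37.1% in the settings that gave 2, 27% without both U samples and 25.5% to 39% with each replicate left out. The number whose groups separated was 0, became 8 without both U samples and ranged from 0 to 3 with each replicate left out. Of all genes, in either direction, 25.7%, 36.2% and 26.3% to 35.5% separated in these settings.

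Over 20 settings the fold changes of Cxcl3, Cxcr2, Csf3, Csf3r, S100a8 and S100a9 stayed above 0, as did that of Retnlg in the 19 that kept it. The direction of the other ligands did not hold. Cxcl1 turned from -0.04 to 0.01 under upper quartile scaling and 0.15 without both U samples (exact permutation p = 0.4), and ranged from -0.29 to 0.25 with each replicate left out. Cxcl5 turned to -0.01 with limma-voom and -0.02 with the suffix as a covariate, and ranged from -0.11 to 0.35 with each replicate left out, and its exact permutation p stayed at 1 with a pseudocount of 0.1 while its difference changed sign. Cxcl2 ranged from -0.02 to 0.66 with each replicate left out and was 0.95 without both U samples. The causes were not tested. At 4 tumours a group, the 95% intervals of the log2 fold changes were wide, and counts of Retnlg and Csf3 were low in some tumours.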
